A study of Mus musculus with 60 samples.

Results

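Brown fat was compared here under a pair of thermogenic stimuli. Of the 60 RNA-seq libraries of the series, 6 entered the direct contrast: 3 of brown adipose tissue from mice held at 4 °C (the cold libraries) and 3 from mice given CL (the CL libraries). The compound was read as CL-316243, which activates beta-3 adrenergic receptors. All groups used were whole brown adipose tissue of 8-week-old males. The CL mice were labelled genotype DTR-, strain B6.Foxp3.DTR, and were given both diphtheria toxin (DT) and CL. The strain carries a toxin receptor driven from the Foxp3 gene of regulatory T cells, and DTR- animals lack that receptor. The cold mice were titled WT but carried the genotype label DTR- and the strain label B6.Foxp3.DTR. Their treatment was given as PBS, with no toxin named. The sources used here do not give the length of either exposure or the dose.

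The cold and CL libraries may come from different experiments, and no group kept warm was labelled as the control of the cold group. Stimulus, toxin and experiment therefore cannot be told apart in the direct contrast. As a common point of reference, 13 libraries of brown fat with neither stimulus were set beside them. These were DTR- mice of strain B6.Foxp3.DTR given DT and PBS (the PBS group, 3 libraries), the DTR- groups titled D3_PBS (DT, 3 libraries) and D4 (DT, 4 libraries), and WT C57BL/6J mice given an isotype control antibody (3 libraries). A further 3 CL libraries came from DTR+ mice of strain B6.Foxp3.DTR given DT and CL, whose Foxp3-expressing cells the toxin is meant to remove. The labels do not say whether the libraries of a group came from separate animals, so p-values measure the spread between these libraries, which may be technical.

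Total counts ranged from 7695982 to 9055959 in the cold and from 3007241 to 9620920 in the CL libraries, with CL 1 (CL replicate 1) the shallowest. Mitochondrially encoded genes took 10.7 to 13.9% of cold and 8.82 to 11.1% of CL counts. Ucp1, the defining gene of brown adipocytes, stood at 12815 CPM (counts scaled to library size) or more in all 6 libraries, and Foxp3 had 0 counts in each. PBS 3 stood apart from the other reference libraries: the summed level of 30 interferon-response genes was 7175 CPM against 514 and 789 CPM in the other PBS libraries, and T and NK cell markers summed to 152 CPM against 9.48 and 17.0 CPM. Its cell cycle genes summed to 293 CPM against 172 and 113 CPM, and it had 7 Foxp3 counts where the other PBS libraries had 0. Comparisons of single genes with PBS are therefore given with and without PBS 3, and reference ranges of single genes and of summed lists are over the 12 libraries without it. CL 3 held more skeletal muscle transcripts than the other 5 (736 CPM against 47.3 to 159 CPM), and leaving those genes out changed no call among the genes named.

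As background, cold makes sympathetic nerves release noradrenaline in brown fat, which acts on several adrenergic receptors, while a beta-3 agonist acts on adipocytes directly. The beta-3 receptor raises cyclic AMP, which activates protein kinase A. That kinase sets off lipolysis, and it switches on genes such as Ppargc1a, a coactivator of mitochondrial and thermogenic genes, and Ucp1, the proton carrier that turns the energy of fatty acid oxidation into heat. Creatine kinase B (Ckb) serves a creatine cycle that spends energy as heat beside Ucp1.

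Cold and CL brown fat differed at 3934 of 12206 genes tested (32.2%; edgeR quasi-likelihood test, adjusted p under 0.05). Of these, 1822 (14.9%) were higher in cold and 2112 (17.3%) were lower. The difference reached 1 on the log2 scale for 2615 of them and 2 for 829, with 412 higher and 417 lower in cold. The median log2 difference (cold minus CL) over all genes tested was 0.05. The libraries of both groups did not overlap at 5776 genes (47.3%), which is the background for each statement on overlap below. The shares of 14.9 and 17.3% and the median of 0.05 are likewise the background for the counts and the median of each gene list. The tissue is bulk, so fewer cells of a type and less RNA per cell cannot be told apart.

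More genes differed from the PBS group in CL than in cold. In a fit with the PBS group, 3760 of 12826 genes (29.3%) differed between CL and PBS and 1013 (7.90%) between cold and PBS. Without PBS 3 the counts were 2914 and 778. Both comparisons share the PBS libraries. The cold count also depended on the control and on single libraries: it was 2724 against D3_PBS, 3864 against D4 and 2828 against the isotype group, while CL was compared with the PBS group alone. It fell to 597, 653 and 576 without cold 1, cold 2 and cold 3 and to 627 without PBS 1. Of the 3934 genes called between cold and CL, 1853 (47.1%) had all 3 CL libraries outside the range of the 13 reference libraries with the cold libraries not all outside on one side. The reverse held for 565 (14.4%), both groups lay outside at 209 (5.31%) and neither at 1307 (33.2%). Over all genes tested these shares were 20.8, 8.45, 4.04 and 66.7%, and without PBS 3 those of the called genes were 47.7, 18.0, 7.57 and 26.7%. The 209 genes with both groups outside were not all shifted alike. At 66 of them cold lay above the range and CL below it, at 44 the reverse held, and the rest had both groups on the same side. Among the 2112 genes lower in cold, 55.7% stood outside the range in the CL libraries alone and 10.4% in the cold libraries alone. For the 1822 genes higher in cold the shares were 37.2 and 18.9%, and neither group lay outside at 38.5%.

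**Figure D1:**
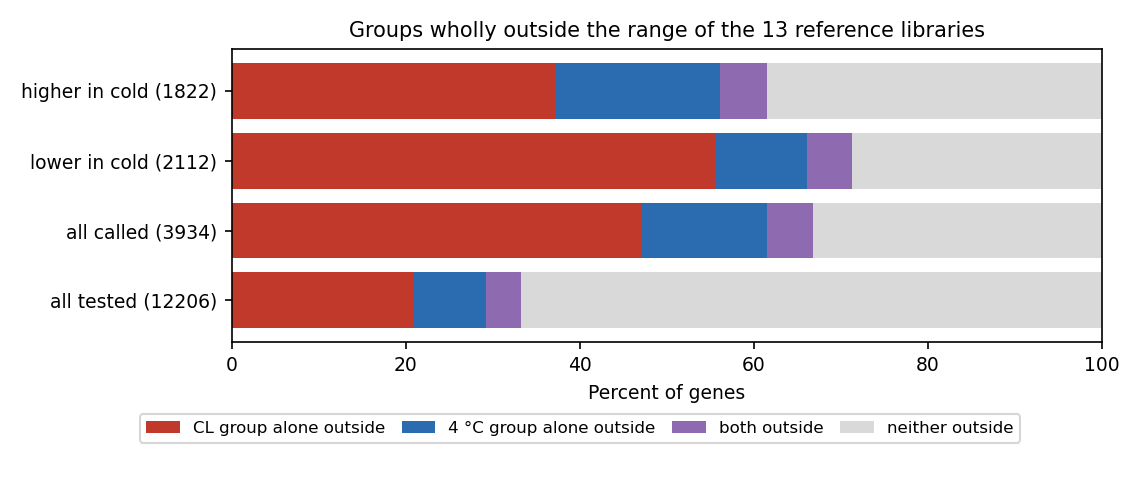
Share of genes (percent, horizontal axis) by which group's 3 libraries all lay beyond the range of the 13 reference brown fat libraries, for genes higher in cold, lower in cold, all called and all tested. CL alone makes up 55.7% of the genes lower in cold and 37.2% of those higher in cold, against 20.8% of all genes tested.

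Of 4 marker genes chosen for this contrast with earlier results known, Ckb and Adrb3 were higher in cold and Ppargc1a and Acot5 were lower. Ckb (mm10 chr12:111669361-111672338, minus strand) stood at 719, 1287 and 984 CPM in cold 1 to 3 and at 102, 69.3 and 113 CPM in CL 1 to 3. Every cold library exceeded every CL library, and the CL libraries lay inside the reference range of 38.6 to 154 CPM. The difference was 10.7-fold (log2 3.43 ± 0.24 SE, edgeR adjusted p = 2.1e-06, n = 3 per group). Against PBS, Ckb rose by log2 3.65 in cold (edgeR adjusted p = 7.9e-06, and 2.1e-05 without PBS 3), while the CL difference of 0.24 had an adjusted p of 0.48 (0.76 without PBS 3).

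Ppargc1a (chr5:51454250-51567726, minus strand) ran the other way. It stood at 139, 106 and 194 CPM in cold and at 2345, 1446 and 2256 CPM in CL, with reference libraries at 34.8 to 156 CPM. The CL libraries exceeded all cold and reference libraries by a wide margin, and cold 3 was the one cold library above the reference range. The level was 13.5-fold higher in CL than in cold (log2 -3.76 ± 0.25 SE, edgeR adjusted p = 1.5e-06). Against PBS it rose in both groups, by log2 4.87 in CL (edgeR adjusted p = 1.0e-07, and 1.9e-07 without PBS 3) and by 1.10 in cold (0.01, and 0.0073 without PBS 3).

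Acot5 (chr12:84069325-84076020, plus strand), an acyl-CoA thioesterase that frees fatty acids from coenzyme A, was close to undetected without a stimulus. The PBS libraries gave 0.170, 0 and 0 CPM. It stood at 8.90, 6.03 and 10.2 CPM in cold and at 124, 119 and 200 CPM in CL. Both groups lay above every reference library, and the CL level was 17.4-fold the cold level (log2 -4.12 ± 0.26 SE, edgeR adjusted p = 8.3e-07). Of 50-base windows of its exons, 22.1% also occur in the neighbouring Acot3, so reads may be split between them.

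Adrb3 (chr8:27225776-27250616, minus strand), the receptor on which CL acts, stood at 217, 183 and 271 CPM in cold and at 35.6, 49.3 and 57.8 CPM in CL. The cold libraries lay at the level of the reference libraries (186 to 361 CPM) and the CL libraries far under it. The cold level was 4.75-fold the CL level (log2 2.25 ± 0.21 SE, edgeR adjusted p = 9.6e-06). Against PBS, Adrb3 fell by 1.99 on the log2 scale in CL (edgeR adjusted p = 8.0e-06, and 1.6e-05 without PBS 3), and the cold difference of 0.25 had an adjusted p of 0.49 (0.50 without PBS 3). An exon on the opposite strand (Gm45470) overlaps Adrb3, and the sources used here do not give the strand setting of the counting.

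Ucp1 (chr8:83290352-83298452, plus strand) did not separate the stimuli. It stood at 16578, 15650 and 15217 CPM in cold and at 16997, 12815 and 13342 CPM in CL, and the groups overlapped. The log2 difference was 0.16 ± 0.15 SE (edgeR adjusted p = 0.45). All 6 libraries lay above the reference maximum of 12288 CPM, and against PBS Ucp1 rose by log2 0.98 in cold (edgeR adjusted p = 0.0016, and 0.0016 without PBS 3) and by 0.82 in CL (0.0013, and 0.0011 without PBS 3).

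**Figure D2:**
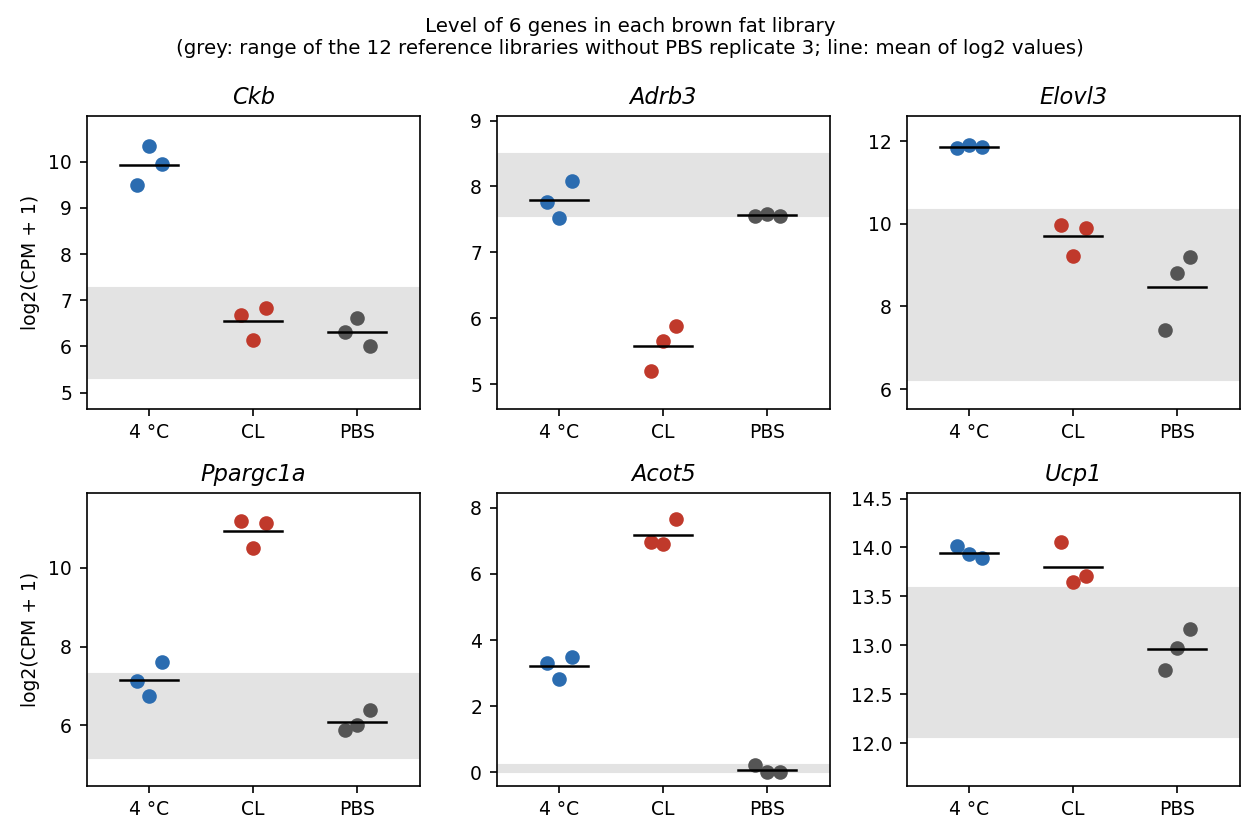
Level of Ckb, Adrb3, Elovl3, Ppargc1a, Acot5 and Ucp1 as log2(CPM + 1), one point per library, by group, with the range of the 12 reference libraries without PBS 3 as a grey band. Ckb and Elovl3 are highest in cold, Ppargc1a and Acot5 are highest in CL, Adrb3 is low in CL, and Ucp1 overlaps between cold and CL.

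Cyclic AMP acts on genes through CREB, a factor whose full site reads TGACGTCA and whose core reads TGACG. RefSeq promoter windows of GRCm38.p6 were searched over the 250 bases before each start on both strands. A core occurred in 5836 of 32851 windows (17.8%) and a full site, which contains cores, in 508 (1.55%). The stretches of 2 CL-high genes with a core and of 1 CL-high and 1 cold-high gene without one are shown 5′ to 3′ on the strand of the gene, with cores of either orientation in capitals. Ppargc1a covers chr5:51567727-51567975 on the minus strand and holds 1 core, 49 bases before the start. Nr4a3 covers chr4:48045055-48045152 on the plus strand and stops at the first annotated exon, with 3 of its 4 cores, at 231, 213 and 205 bases before the start. Acot5 covers chr12:84069074-84069323 on the plus strand and Ckb covers chr12:111672339-111672588 on the minus strand. The Acot5 stretch is the first of 2 windows of that gene, so its lack of a core holds for that start alone. Atf3, a further CL-high gene that is not shown, holds 1 core, 7 bases before the start.
Ppargc1a: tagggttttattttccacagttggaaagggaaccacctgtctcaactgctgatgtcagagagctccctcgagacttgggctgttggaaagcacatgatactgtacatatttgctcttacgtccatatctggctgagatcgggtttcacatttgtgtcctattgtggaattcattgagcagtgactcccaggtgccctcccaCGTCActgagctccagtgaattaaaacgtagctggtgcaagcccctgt
Nr4a3: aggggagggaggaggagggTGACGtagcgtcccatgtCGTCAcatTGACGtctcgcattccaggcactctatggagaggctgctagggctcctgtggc
Acot5: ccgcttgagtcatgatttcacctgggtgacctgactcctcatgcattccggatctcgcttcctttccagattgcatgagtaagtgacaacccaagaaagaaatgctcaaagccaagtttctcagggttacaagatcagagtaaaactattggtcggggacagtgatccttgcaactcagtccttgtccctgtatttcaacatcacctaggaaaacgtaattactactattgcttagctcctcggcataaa
Ckb: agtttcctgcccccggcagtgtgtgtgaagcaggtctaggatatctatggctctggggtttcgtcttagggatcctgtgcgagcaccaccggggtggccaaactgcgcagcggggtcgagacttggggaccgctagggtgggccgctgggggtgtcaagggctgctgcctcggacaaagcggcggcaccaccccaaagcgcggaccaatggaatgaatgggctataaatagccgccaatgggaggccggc
No full site occurred in any of them. A match is a string of letters, and neither binding nor use of a site was measured. The genes described here were chosen by hand. The share of cores among genes called higher or lower was not counted, so a link between cores and levels was not tested.

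Beyond Ucp1, the regulators and effectors of thermogenesis split between the stimuli. Of 29 tested genes of this group, 7 were higher in cold, 11 were lower and 11 did not pass the test, with a median log2 difference of -0.38. Ppara, a nuclear receptor of fatty acid oxidation genes, stood at 37.7, 47.9 and 64.8 CPM in cold and at 535, 586 and 525 CPM in CL. That is 10.8-fold higher in CL (log2 -3.43 ± 0.20 SE, edgeR adjusted p = 5.1e-07), where all libraries exceeded the reference maximum of 191 CPM. On the cold side, Elovl3, a fatty acid elongase of brown fat, stood at 3642, 3860 and 3688 CPM against 1008, 597 and 956 CPM in CL. It was 4.46-fold higher in cold (log2 2.16 ± 0.19 SE, edgeR adjusted p = 5.9e-06), and the cold libraries lay above the reference maximum of 1280 CPM while the CL libraries lay under it. Bmp8b, a secreted factor of active brown fat, was high in cold alone. It stood at 11.8, 30.7 and 13.6 CPM in cold, at 0, 0 and 1.29 CPM in CL and at most at 4.28 CPM in the reference libraries (edgeR adjusted p = 7.5e-04 against CL). Exons of Ppie and Gm17244 overlap Bmp8b on the opposite strand.

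**Figure D3:**
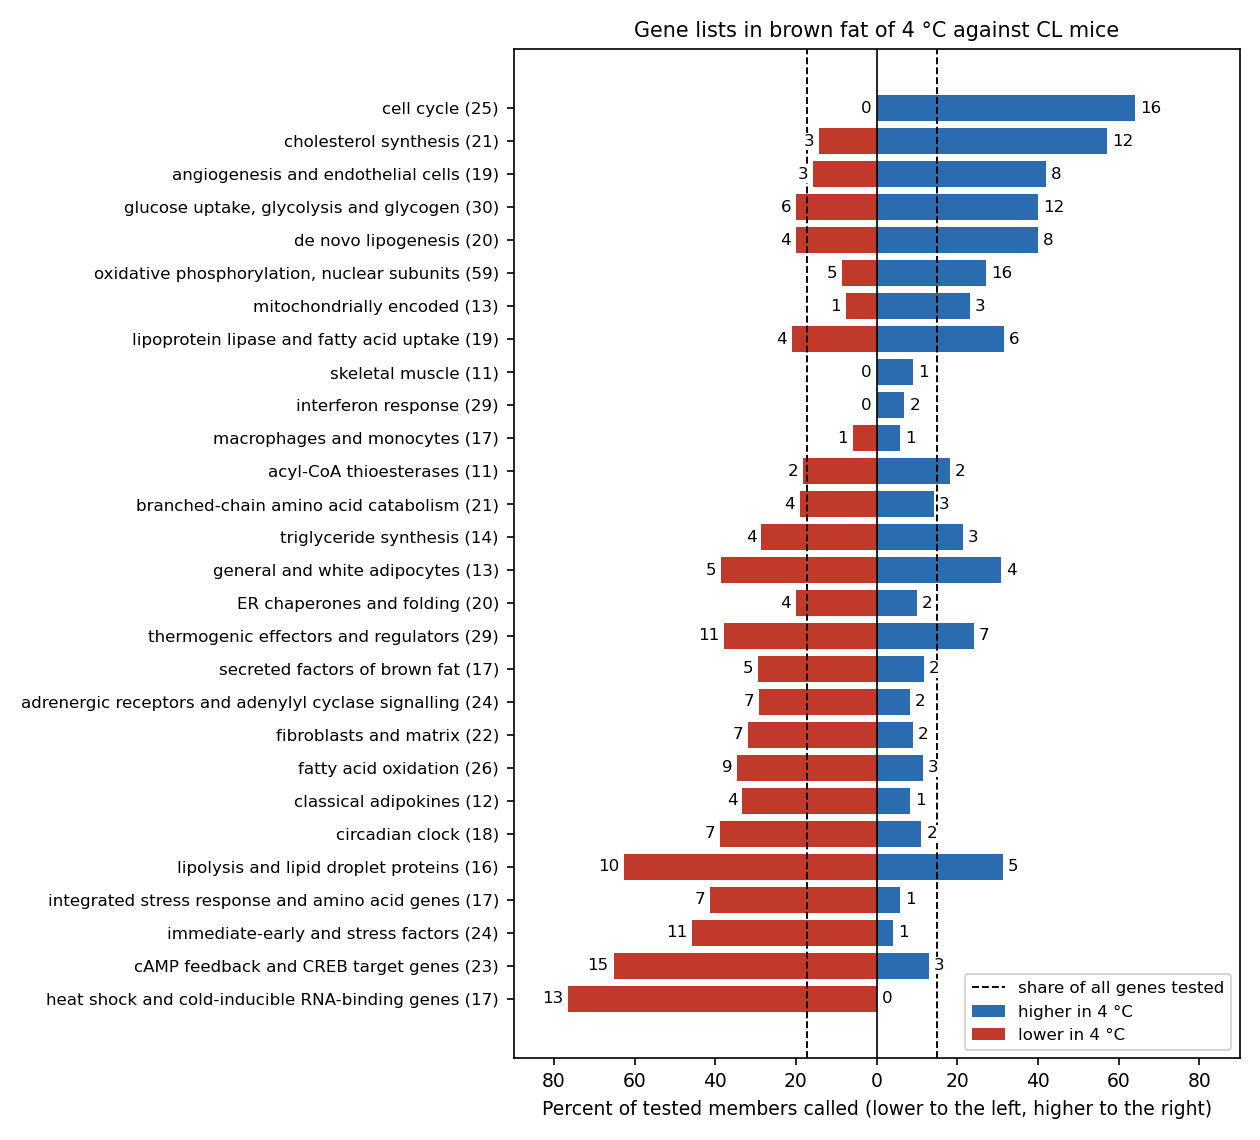
Percent of the tested members of each gene list (lists with at least 10 tested members) that were higher in cold (right) or lower in cold (left), with dashed lines at the share of all genes tested, 14.9 and 17.3%. The joint list of heat shock and cold-inducible RNA-binding genes (13 of 17) and the cyclic AMP genes (15 of 23) have the longest bars towards CL. Cell cycle (16 of 25) and cholesterol synthesis (12 of 21) genes have the longest towards cold.

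Along the receptor pathway itself, 7 of 24 tested genes of adrenergic signalling were lower in cold and 2, Adrb3 and Prkaca, were higher (median -0.34). Prkaca encodes a catalytic subunit of protein kinase A and stood at 245, 279 and 247 CPM in cold and 100.2, 171 and 129 CPM in CL (log2 0.97 ± 0.19 SE, edgeR adjusted p = 0.0021). Another catalytic subunit, Prkacb, and the regulatory subunit Prkar1a went the opposite way, with log2 differences of -1.23 and -1.03 (edgeR adjusted p = 2.8e-04 and 1.4e-04). The members of one kinase thus differed in direction. Ffar4, a receptor for long-chain fatty acids, was lower in cold than in CL (148 to 242 against 376 to 488 CPM, edgeR adjusted p = 5.7e-04), although both groups exceeded the reference maximum of 144 CPM. With all 6 brown fat groups in one fit, the call of Ffar4 was lost (edgeR adjusted p = 0.09). With cold 1 or CL 2 left out, 4 genes of this group were called higher in place of 2.

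The genes that cyclic AMP induces, and those that limit its signal, were mostly lower in cold: 15 of 23 tested were lower and 3 higher, with a median of -1.20. Nr4a3 (chr4:48045153-48086447, plus strand), an orphan nuclear receptor and early CREB target, stood at 0.231, 2.37 and 1.57 CPM in cold and at 245, 163 and 209 CPM in CL. The groups did not overlap and the cold libraries lay within the reference range of 0.309 to 8.28 CPM, apart from cold 1 just under it (log2 -7.12 ± 0.45 SE, edgeR adjusted p = 2.6e-06). Pde4d, a phosphodiesterase that breaks cyclic AMP down, was 12.6-fold lower in cold, at 37.1, 43.2 and 53.3 against 506, 734 and 467 CPM (edgeR adjusted p = 6.2e-07). The salt-inducible kinases Sik1 and Sik2, which hold back the CREB coactivators, were 14.7-fold and 9.56-fold lower in cold (edgeR adjusted p = 4.1e-06 and 2.4e-07). In each of these genes all CL libraries exceeded the reference maximum.

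The 3 genes of this list that were higher in cold were Dusp1, Rgs2 and Pde4a. Dusp1, a phosphatase of MAP kinases, stood at 256, 207 and 185 CPM in cold and at 68.1, 73.2 and 82.3 CPM in CL (log2 1.56 ± 0.17 SE, edgeR adjusted p = 3.2e-05), both within the reference range of 25.9 to 264 CPM. In the fit of all 6 brown fat groups its adjusted p was 0.065. Rgs2, which damps G protein signals, stood at 12, 43.6 and 51.6 CPM in cold and 0.339, 1.56 and 8.20 CPM in CL (edgeR adjusted p = 0.033). The CL libraries lay below every reference library (38.4 to 252 CPM), as did cold 1. Pde4a, a further phosphodiesterase, had the smallest difference of the 3 (log2 0.64 ± 0.23 SE, edgeR adjusted p = 0.049). The call of Rgs2 was lost without cold 2, cold 3 or CL 2 (edgeR adjusted p up to 0.12) and that of Pde4a without any library but CL 1 (up to 0.21) and with the PBS group or all 6 groups in the fit (0.14 and 0.067). The list then held 1 higher gene without cold 2, cold 3 or CL 2.

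Immediate-early genes, which cells switch on within minutes of a stimulus, showed the same split, with 11 of 24 tested lower in cold, 1 higher and a median of -1.28. Atf3, a stress-induced transcription factor, stood at 3.59, 4.74 and 2.91 CPM in cold and at 163, 63.9 and 130.1 CPM in CL (log2 -4.94 ± 0.36 SE, edgeR adjusted p = 2.4e-06). The AP-1 factors Jun and Junb were 4.49-fold and 5.95-fold lower in cold (edgeR adjusted p = 2.6e-06 and 2.3e-06), and Ier2 was 7.65-fold lower (1.7e-06). Fos, the partner of Jun in AP-1, was the one member higher in cold, at 14.2, 17.0 and 6.54 CPM against 5.76, 5.65 and 1.62 CPM (log2 1.62 ± 0.54 SE, edgeR adjusted p = 0.038). Its call was lost without cold 1, cold 2, CL 1 or CL 3 (edgeR adjusted p up to 0.17) and with the PBS group or all 6 brown fat groups in the fit (0.15 and 0.34). Without cold 1, cold 2 or CL 1, 0 members were called higher, and without CL 2, 2 were.

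CL libraries also carried high levels of stress-response genes. The integrated stress response, run by the factor Atf4 when protein synthesis is curbed, had 7 of 17 tested genes lower in cold and 1 higher (median -0.30), and its genes summed to 683 to 688 CPM in cold, 2187 to 2915 CPM in CL and 490.2 to 640.2 CPM in the reference libraries. Atf4 itself stood at 94.3, 71.4 and 104 CPM in cold and at 609.6, 421 and 558 CPM in CL, a 5.78-fold difference (edgeR adjusted p = 2.1e-06), with cold inside the reference range of 61.2 to 114 CPM. Ddit4 and Sesn2, inhibitors of the growth kinase mTORC1, were 23.9-fold and 16.5-fold lower in cold (edgeR adjusted p = 1.4e-06 and 8.2e-07). Slc3a2, the heavy chain of amino acid transporters, was 8.27-fold lower in cold (edgeR adjusted p = 3.8e-07), with both groups above the reference maximum of 127 CPM. Psph, which makes serine, was the exception, at 58.3, 49.7 and 42.6 CPM in cold and 11.9, 21.0 and 19.0 CPM in CL (log2 1.55 ± 0.26 SE, edgeR adjusted p = 8.0e-04).

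Of the 17 genes in the list of heat shock proteins and cold-inducible RNA-binding proteins, 13 were lower in cold and 0 were higher (median -0.93), and 0 were higher by DESeq2 or at an unadjusted edgeR p under 0.05. The list summed to 3326 to 3931 CPM in cold, 8505 to 9331 CPM in CL and 2281 to 4272 CPM in the reference libraries. Dnajb1, a co-chaperone, stood at 61.3, 42.7 and 38.4 CPM in cold and at 835, 912 and 584 CPM in CL, a 16.1-fold difference (edgeR adjusted p = 6.6e-07). Hsph1 and Bag3, which assist the same chaperone machine, were 6.83-fold and 5.61-fold lower in cold (edgeR adjusted p = 8.3e-07 and 4.7e-06). Hspa1a, the inducible Hsp70, stood at 2.20, 0.692 and 0.605 CPM in cold and at 34.2, 47.3 and 31.3 CPM in CL (edgeR adjusted p = 1.1e-05), though 60.3% of its 50-base windows also occur in Hspa1b.

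Chaperones of the endoplasmic reticulum moved less as a group, with 4 of 20 lower in cold, 2 higher and a median of -0.09, near the shares of 17.3 and 14.9% and the median of 0.05 of all genes tested. Hyou1 was 6.69-fold and Dnajb9 4.44-fold lower in cold (edgeR adjusted p = 3.8e-05 and 9.7e-06), both above the reference maximum in every CL library. Hspa5, the main chaperone of the compartment, differed by log2 -0.77 ± 0.14 SE (edgeR adjusted p = 0.0017) and Herpud1, which serves the degradation of misfolded proteins, by -0.43 ± 0.15 (0.04). Manf and Pdia4, which aid folding, were higher in cold by 0.72 and 0.73 (edgeR adjusted p = 0.049 and 0.031). The calls of Manf, Pdia4 and Herpud1 were each lost in 5 of the 6 fits without 1 library (edgeR adjusted p up to 0.22, 0.16 and 0.13), and that of Manf with the PBS group in the fit (0.067). Those for Manf and Herpud1 held without CL 2 alone and that for Pdia4 without cold 1 alone, and 0 members were called higher without cold 2, cold 3 or CL 1 and 1 in each other fit.

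Of 18 tested clock genes, 7 were lower in cold and 2 were higher, with a median of -0.41. Nfil3, a repressor of clock output genes, stood at 19.9, 12.8 and 18.9 CPM in cold and at 172, 153 and 205 CPM in CL, a 10.1-fold difference (edgeR adjusted p = 6.6e-07). Arntl (chr7:113207465-113314126, plus strand), the positive arm of the clock, stood at 21.5, 12.5 and 18.5 CPM in cold and at 91.4, 64.3 and 65.1 CPM in CL (log2 -2.04 ± 0.25 SE, edgeR adjusted p = 9.5e-05). Its partner Clock differed by log2 -1.47, the repressors Nr1d2, Nr1d1 and Per1 differed by -2.29, -1.21 and -1.74, and the output factor Dbp by -1.81 (edgeR adjusted p between 2.6e-05 and 0.023). Per3 and Hlf, which belong to the period and output genes, were higher in cold by 1.68 and 1.39 (edgeR adjusted p = 8.3e-04 and 0.013).

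In the PBS libraries Arntl stood at 1.70, 3.58 and 0.808 CPM, lower than in any cold or CL library, and Per3 at 114, 101 and 136 CPM, higher than in any. The sources used here do not give the hour at which tissue was taken, so time of day and stimulus cannot be told apart for these genes. The same limit holds for any other gene that varies by hour, in the direct contrast and in the comparisons with PBS. Differences for Cry1, Cry2, Per2, Ciart, Bhlhe40, Bhlhe41, Rora and Tef ranged from -0.66 for Rora to 0.94 for Bhlhe41 and did not pass the test. The call of Hlf was lost without cold 2 (edgeR adjusted p = 0.089), which left 1 member called higher, and that of Dbp without cold 1, cold 3 or CL 2 (up to 0.10).

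**Figure D4:**
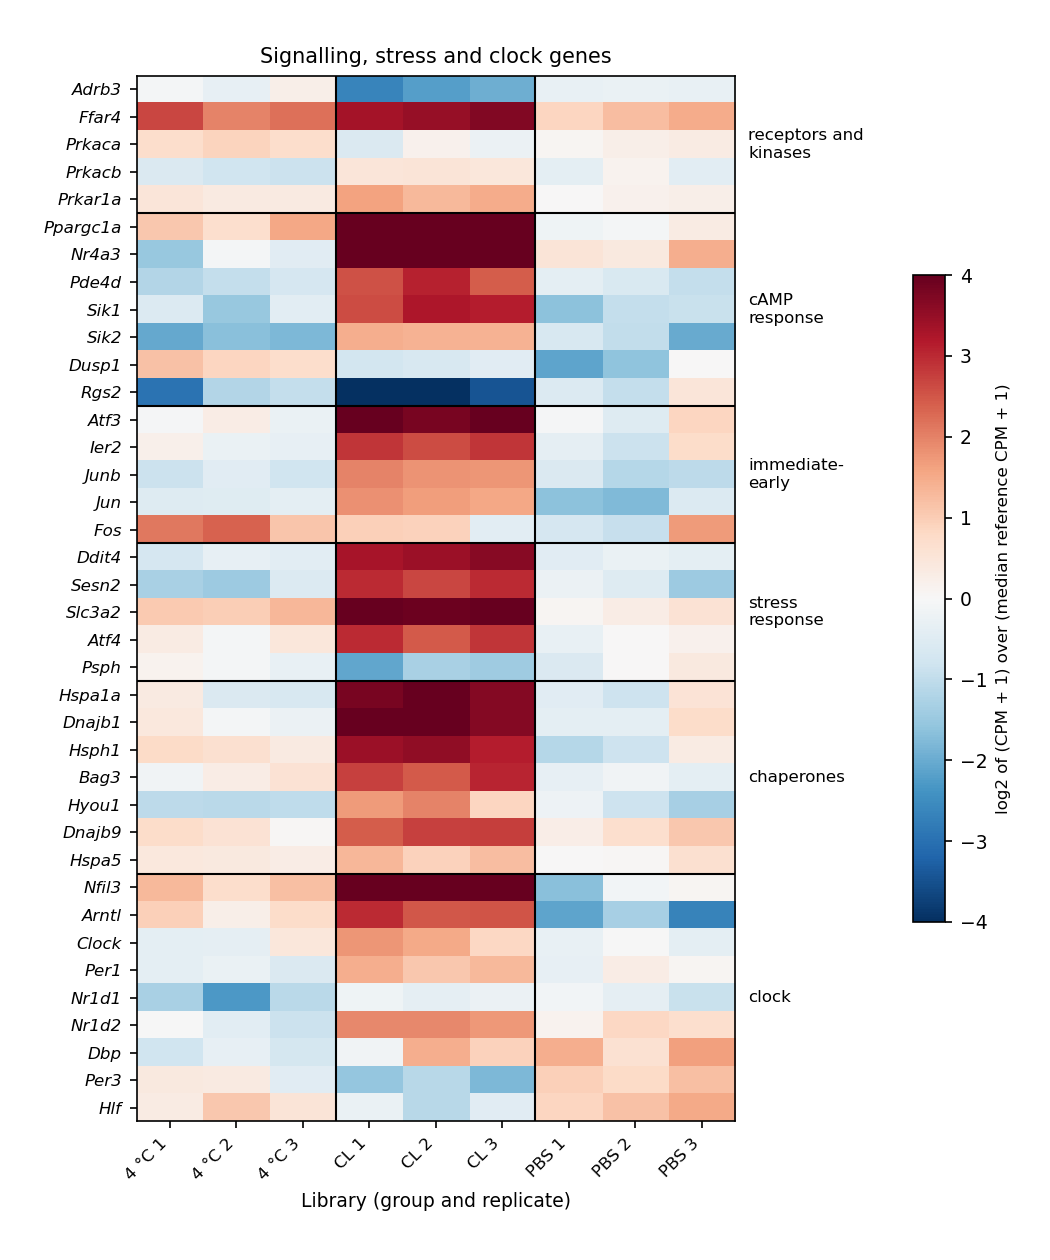
Signalling, stress and clock genes (rows) in the 3 cold, 3 CL and 3 PBS libraries (columns), coloured by log2 of (CPM + 1) over (median reference CPM + 1) on a scale that ends at -4 and 4. Most rows are red in CL alone, Adrb3, Rgs2 and Psph are blue in CL, and Arntl is blue in PBS.

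No other creatine gene differed by as much as Ckb. Of 6 tested, Ckb and Alpl were higher in cold and Slc6a8 was lower, with a median of -0.18. Alpl, the phosphatase that removes phosphate from phosphocreatine in the cycle, stood at 53.7, 63.6 and 89.6 CPM in cold and 38.6, 33.5 and 47.0 CPM in CL (log2 0.82 ± 0.22 SE, edgeR adjusted p = 0.014), and every cold library exceeded the reference maximum of 43.4 CPM. Slc6a8, the creatine transporter, stood at 6.71, 9.19 and 6.90 CPM in cold and 17.3, 14.6 and 15.4 CPM in CL (log2 -1.02 ± 0.32 SE, edgeR adjusted p = 0.028). Gatm and Gamt, which make creatine, stayed below 10 CPM in all 6 libraries with differences of -0.19 and -0.17, and the muscle isoform Ckm ranged from 0.347 to 129.7 CPM with its highest value in CL 3 (edgeR adjusted p = 0.42). The call of Alpl was lost without cold 3 (edgeR adjusted p = 0.11) or CL 1 (0.061), and that of Slc6a8 without cold 1, cold 3, CL 1 or CL 3 (up to 0.083).

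Among 11 tested acyl-CoA thioesterases, Acot4 and Acot5 were lower in cold and Acot8 and Acot11 higher, with a median of 0.11. The share called in each direction, 18.2%, lies near the 14.9 and 17.3% of all genes tested. Acot4, a peroxisomal member, stood at 19.2, 14.6 and 17.6 CPM in cold and at 110.4, 92.7 and 107 CPM in CL (log2 -2.56 ± 0.19 SE, edgeR adjusted p = 2.3e-06), with the cold libraries inside the reference range. Acot11, a member first described as cold-induced in brown fat, stood at 687, 356 and 459.7 CPM in cold and at 149.7, 151 and 112 CPM in CL (log2 1.89 ± 0.24 SE, edgeR adjusted p = 1.1e-04). Its cold libraries lay inside the reference range of 181 to 1084 CPM and its CL libraries under it. Acot8, another peroxisomal enzyme, was higher in cold by log2 0.99 ± 0.29 SE (edgeR adjusted p = 0.02), a call lost without cold 2 (0.11), CL 2 (0.055) or CL 3 (0.07).

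Acot2, of the mitochondrial matrix, did not pass the test between cold and CL (253 to 264 against 293 to 379.7 CPM, edgeR adjusted p = 0.10), while both groups lay above the reference maximum of 139 CPM. Of its 50-base windows, 27.7% also occur in Acot1. Acot1, Acot6, Acot7, Acot9, Acot12 and Acot13 had overlapping groups and differences between -0.09 and 0.81.

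Fatty acid oxidation genes were more often lower in cold, at 9 of 26 (34.6%, against 17.3% of all genes tested) against 3 higher (11.5%, against 14.9%), with a median of -0.16. Without 1 library, 6 to 11 were called lower. With the DTR+ CL libraries in place of the DTR- ones the balance turned, with 7 higher in cold and 4 lower. Acads, a mitochondrial dehydrogenase of short chains, and Acaa1b, a peroxisomal thiolase that shares 30.5% of its windows with Acaa1a, were lower in cold (log2 -0.91 and -1.31, edgeR adjusted p = 3.2e-04 and 3.3e-04).

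The 3 oxidation genes higher in cold included Cpt2 and Decr1. Cpt2, of the carnitine shuttle, stood at 976, 983 and 971 CPM in cold and 534, 381 and 574 CPM in CL (log2 1.01 ± 0.16 SE, edgeR adjusted p = 4.5e-04). Decr1, which handles unsaturated fatty acids, was higher by log2 0.83 (edgeR adjusted p = 0.0021). For Cpt2 and Decr1, cold lay within the reference range and CL below its minimum of 793 and 779 CPM.

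Lipid droplet and lipolysis genes split almost without remainder: 10 of 16 tested were lower in cold, 5 were higher and 1 did not pass the test (median -0.65). Plin1, the droplet coat protein that protein kinase A acts on, stood at 188, 194 and 181 CPM in cold and at 1056, 1258 and 1083 CPM in CL, a 5.92-fold difference (edgeR adjusted p = 4.6e-07). Cold lay below the reference range of 234 to 416 CPM and CL above it. Plin4 had the same order, at 96.8, 51.2 and 115 CPM in cold, 723, 636 and 526 CPM in CL and 169 to 375 CPM in the reference libraries (edgeR adjusted p = 3.4e-05). Plin2 differed by log2 -1.23 ± 0.18 SE (edgeR adjusted p = 2.7e-04), with the highest levels in CL. Against PBS it rose by log2 2.42 in CL (edgeR adjusted p = 1.4e-06 with and without PBS 3) and by 1.18 in cold (0.0018, and 0.0011 without PBS 3).

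On the other side, Plin3, a further coat protein, was higher in cold by log2 1.25 ± 0.26 SE (edgeR adjusted p = 0.003), with all CL libraries (33.2 to 66.8 CPM) below the reference minimum of 138 CPM and all cold libraries (84.9, 135 and 105 CPM) below it too, cold 2 by the least. The monoglyceride lipases Mgll and Abhd6 were 1.92-fold and 2.15-fold higher in cold (edgeR adjusted p = 6.5e-04 and 3.2e-04), and the fatty acid carrier Fabp4 was 1.76-fold higher (0.0049). G0s2, an inhibitor of the triglyceride lipase, stood at 752, 478 and 324 CPM in cold and 223, 268 and 339 CPM in CL. Its groups overlapped, and its call (log2 0.93 ± 0.27 SE, edgeR adjusted p = 0.025) was lost without cold 1, cold 2, CL 1 or CL 2 (up to 0.11) and with the PBS group or all 6 brown fat groups in the fit (0.094 and 0.06).

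Glycerolipid synthesis changed enzyme by enzyme, with 3 of 14 tested higher in cold (21.4%, against 14.9% of all genes), 4 lower (28.6%, against 17.3%) and a median of -0.04. Gpat3 (chr5:100845713-100899102, plus strand), which adds the first fatty acid to glycerol phosphate, had the largest fold of the list. It stood at 24.7, 19.6 and 24.1 CPM in cold and at 416, 318 and 451 CPM in CL, a 17.0-fold difference (log2 -4.09 ± 0.19 SE, edgeR adjusted p = 1.4e-07), against 10.4 to 23.3 CPM in the reference libraries. Gk, which phosphorylates glycerol, was 2.77-fold lower in cold than in CL (edgeR adjusted p = 3.5e-05), and 2 of the 3 cold libraries and all CL libraries exceeded the reference maximum of 626 CPM. Pck1, which supplies glycerol from pyruvate, and Dgat1, which completes the triglyceride, were 3.26-fold and 2.81-fold lower in cold (edgeR adjusted p = 1.2e-04 and 0.025).

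Gpd1, which makes glycerol phosphate from glucose, stood at 12203, 8045 and 8644 CPM in cold and 4231, 2638 and 4145 CPM in CL (log2 1.42 ± 0.21 SE, edgeR adjusted p = 3.2e-04), and the CL libraries fell below the reference minimum of 5201 CPM. Agpat2 and Dgat2, of the later steps, were 1.86-fold and 1.70-fold higher in cold (edgeR adjusted p = 6.9e-04 and 0.022). The call of Dgat2 was lost without cold 2 (edgeR adjusted p = 0.14), CL 1 (0.12) or CL 2 (0.081), leaving 2 members called higher, and that of Dgat1 without cold 1 (0.063) or cold 2 (0.066).

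Genes of fatty acid synthesis were higher in cold at 8 of 20 and lower at 4 (median 0.58). Elovl6, which lengthens palmitate, stood at 1319, 999 and 1424 CPM in cold and at 225, 228 and 250.0 CPM in CL, a 5.42-fold difference (edgeR adjusted p = 9.0e-07). The cold libraries lay inside the reference range of 513 to 1545 CPM and the CL libraries below it. The same held for Srebf1, the transcription factor of lipogenic genes, in CL, at 46.5 to 73.2 CPM against a reference minimum of 255 CPM, with cold at 231 to 244 CPM just under that minimum (log2 1.97 ± 0.18 SE, edgeR adjusted p = 8.3e-06). Scd2, a desaturase, and Mid1ip1, an activator of acetyl-CoA carboxylase, were 4.69-fold and 3.36-fold higher in cold (edgeR adjusted p = 1.4e-05 and 2.2e-04).

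The 4 members lower in cold were Scd1, Acsl3, Pnpla3 and Acss2. Scd1, the main desaturase of adipose tissue, stood at 4888, 2300 and 4172 CPM in cold and 12909, 17635 and 13055 CPM in CL (log2 -1.92 ± 0.26 SE, edgeR adjusted p = 2.8e-04), and every cold library lay far below the reference minimum of 13847 CPM, with CL 1 and CL 3 just under it. Acsl3, which activates fatty acids at the droplet, was 2.87-fold lower in cold (edgeR adjusted p = 5.9e-04), with CL above the reference maximum of 19.8 CPM. Pnpla3, a droplet lipase, and Acss2, which activates acetate, were lower in cold (log2 -0.94 and -0.55, edgeR adjusted p = 0.0038 and 0.013), and both groups lay below the reference minimum of each gene except at CL 3 for Acss2. The call of Acss2 was lost without cold 2 (edgeR adjusted p = 0.057) and with the PBS group or all 6 brown fat groups in the fit (0.076 and 0.19).

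Sterol synthesis had 12 of 21 tested genes higher in cold and 3 lower, with a median of 0.95. Sc5d and Nsdhl, of the late steps, were 2.62-fold and 2.44-fold higher in cold (edgeR adjusted p = 2.0e-04 and 9.8e-04), and Fdps, which makes farnesyl diphosphate, was 5.01-fold higher (2.5e-04), though 26.2% of its windows are shared with other loci. Levels of Sc5d were 163, 122 and 109 CPM in cold and 49.4, 44.6 and 59.1 CPM in CL. Against the trend of the list, the early enzyme Hmgcs1 was lower in cold (log2 -0.72 ± 0.14 SE, edgeR adjusted p = 0.0024). Fdft1, which forms squalene, stood at 17.1, 15.3 and 21.7 CPM in cold and 85.7, 70.7 and 132 CPM in CL (edgeR adjusted p = 2.6e-05), with cold far below the reference minimum of 79.2 CPM.

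Glucose use followed the lipogenic genes, with 12 of 30 tested higher in cold, 6 lower and a median of 0.48. Slc2a4, the insulin-responsive glucose transporter GLUT4, stood at 551, 384 and 488 CPM in cold and at 144, 122 and 195 CPM in CL, a 3.15-fold difference (edgeR adjusted p = 5.2e-05). Pfkfb1, which sets the level of a glycolytic activator, was 6.97-fold higher in cold (edgeR adjusted p = 2.3e-05). For both genes the CL libraries lay below the reference minimum of 320.1 and 41.1 CPM. Pdk4, a kinase that inhibits pyruvate dehydrogenase, went in the other direction. It stood at 850.0, 716 and 1071 CPM in cold and 5544, 4374 and 5207 CPM in CL, a 5.63-fold difference (edgeR adjusted p = 1.4e-06). Only the CL libraries lay above its reference maximum of 1764 CPM. Ugp2, which makes the sugar donor for glycogen, was also lower in cold, 2.99-fold (edgeR adjusted p = 1.0e-04).

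**Figure D5:**
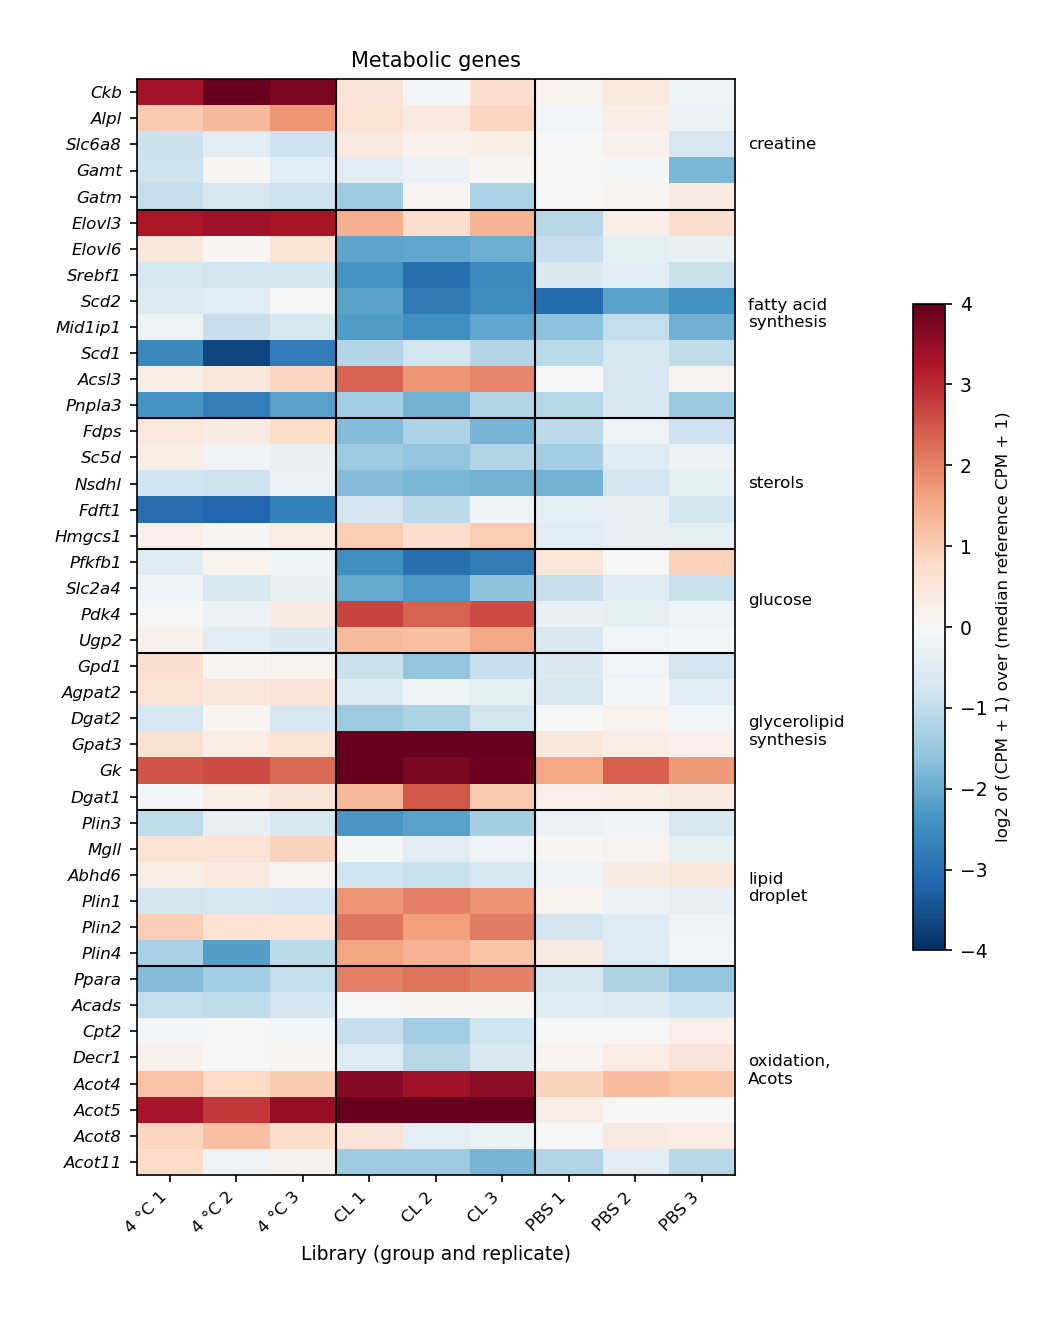
Metabolic genes (rows) in the 3 cold, 3 CL and 3 PBS libraries (columns), coloured by log2 of (CPM + 1) over (median reference CPM + 1) on a scale that ends at -4 and 4. Ckb and Elovl3 are deepest red in cold, Gpat3, Gk and Acot5 in CL, Elovl6, Srebf1 and Pfkfb1 are blue in CL, and Scd1 and Fdft1 are blue in cold.

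Uptake of lipid from blood had 6 of 19 tested genes higher in cold (31.6%, against 14.9% of all genes) and 4 lower (21.1%, against 17.3%), with a median of 0.29. Gpihbp1, which carries lipoprotein lipase across the capillary wall, stood at 267, 217 and 261 CPM in cold and 150.4, 107 and 139.7 CPM in CL (log2 0.94 ± 0.16 SE, edgeR adjusted p = 9.7e-04), with every cold library above the reference maximum of 139 CPM. Vldlr, a receptor for triglyceride-rich particles, was 2.89-fold higher in cold (edgeR adjusted p = 8.5e-05), with all CL libraries and cold 1 and cold 3 below the reference minimum of 159 CPM. Acsl1, which activates fatty acids for oxidation, Lrp1, a lipoprotein receptor, Angptl4, an inhibitor of lipoprotein lipase, and Apoe, a lipoprotein component, were 2.54-fold, 2.95-fold, 2.53-fold and 2.03-fold lower in cold (edgeR adjusted p between 4.4e-05 and 2.4e-04).

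Nuclear-encoded subunits of the respiratory chain differed by small amounts, with 16 of 59 higher in cold, 5 lower and a median of 0.10. The largest named difference was that of Ndufb7, of complex I, at 599, 567 and 516 CPM in cold and 207, 367 and 256 CPM in CL (log2 1.04 ± 0.20 SE, edgeR adjusted p = 0.0017). Ndufa8 and Ndufs4, of the same complex, were 1.66-fold and 1.57-fold higher in cold (edgeR adjusted p = 0.0013 and 0.0031). Lower in cold were Cox8a, Atp5b, Sdha, Atp5j and Cox7b, of complexes II, IV and V, with log2 differences from -0.63 to -0.42 (edgeR adjusted p between 0.0039 and 0.048). The counts rested on single libraries: 10, 9 and 10 subunits were called higher without cold 1, cold 2 and cold 3 and 6 without CL 1, and 3 were called lower without cold 2, CL 1 or CL 3 and 9 without CL 2. Calls were lost for Cox7b in all fits but that without cold 1 (edgeR adjusted p up to 0.14), for Sdha without cold 2, CL 1 or CL 3 (up to 0.077) and for Atp5j without cold 1 (0.056).

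Of the 13 mitochondrially encoded genes, mt-Nd1, mt-Nd2 and mt-Nd6 of complex I were higher in cold and mt-Co1 of complex IV was lower (median 0.23). Levels of mt-Nd1 were 59885, 43686 and 59759 CPM in cold and 21370, 35592 and 27419 CPM in CL (log2 0.98 ± 0.20 SE, edgeR adjusted p = 0.0031), and mt-Nd2 was 1.94-fold higher (0.0023). The call of mt-Co1 (log2 -0.66 ± 0.20 SE, edgeR adjusted p = 0.022) was lost without cold 2, cold 3 or CL 1 (up to 0.096), and that of mt-Nd6 (0.05 when rounded) in all fits but that without CL 2 (up to 0.11). Nuclear copies share 51.1% of the windows of mt-Co1, and mt-Nd6 lies on the strand opposite to the other genes.

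Branched-chain amino acid catabolism, which feeds brown fat mitochondria, had 3 of 21 genes higher in cold and 4 lower (median -0.14). These shares, 14.3 and 19.0%, lie near those of all genes tested, 14.9 and 17.3%. Aldh6a1 and Hibadh, of valine breakdown, were 2.29-fold and 2.40-fold lower in cold (edgeR adjusted p = 5.9e-05 and 3.2e-05). Aldh6a1 stood at 427, 410.3 and 354 CPM in cold, all below the reference minimum of 773 CPM, and at 928, 854 and 999 CPM in CL, all inside the range. Acadsb, for the isoleucine branch, and Mmut, a late mitochondrial step, were lower in cold (log2 -0.73 and -0.55, edgeR adjusted p = 0.0039 and 0.018). Higher in cold were Acad8 of valine breakdown, Dbt of the branched-chain ketoacid dehydrogenase and Slc25a44, the mitochondrial carrier of these amino acids, by 0.71, 0.51 and 0.52 (edgeR adjusted p = 0.014, 0.019 and 0.021). Acad8 lost its call without cold 2 (edgeR adjusted p = 0.079), Dbt without any cold library or CL 2 (up to 0.079) and Slc25a44 in all fits but that without CL 3 (up to 0.081), so that 0 members were called higher without cold 2 and 1 without cold 3 or CL 2. The call of Mmut was lost without cold 1, cold 2, CL 1 or CL 3 (edgeR adjusted p up to 0.078).

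Among secreted factors of brown fat, 5 of 17 tested were lower in cold and 2 higher (median -0.71). Gdf15, a stress hormone that acts on appetite, stood at 1.85, 1.98 and 0.847 CPM in cold and 24.7, 19.7 and 11.5 CPM in CL (log2 -3.52 ± 0.47 SE, edgeR adjusted p = 1.6e-04), and cold lay within the reference range of 0 to 2.14 CPM. Angptl4 is described with lipid uptake. Fst, an activin inhibitor, Metrnl, a meteorin-like hormone, and Nrg4, a growth factor of brown adipocytes, were lower in cold (log2 -1.87, -1.35 and -0.67, edgeR adjusted p = 0.047, 0.046 and 0.021). Beside Bmp8b, the growth factor Fgf9 was higher in cold, at 4.63, 6.92 and 6.17 CPM against 0, 2.34 and 0.108 CPM (edgeR adjusted p = 0.037). Without 1 library the calls were lost for Fgf9 in all fits but that without CL 2 (edgeR adjusted p up to 0.11, and 0.054 and 0.053 with the PBS group or all 6 groups in the fit), for Fst in all but that without cold 1 (up to 0.13), for Metrnl in all but that without CL 3 (up to 0.16) and for Nrg4 without cold 2, cold 3 or CL 1 (up to 0.075). That left 2 genes called lower without cold 2 or cold 3, 3 without CL 1, and 1 called higher in all fits but that without CL 2.

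Of 12 adipokines, 4 were lower in cold and 1 was higher (median -0.67). Rbp4, a retinol carrier, and the complement factor Cfd were 2.97-fold and 2.71-fold lower in cold (edgeR adjusted p = 8.8e-05 and 7.4e-05), and adiponectin, Adipoq, 1.79-fold lower (7.8e-04). Adipoq lay below the reference minimum of 1065 CPM in all cold libraries (777 to 853 CPM). Leptin, Lep, was higher in cold at 15.4, 11.6 and 8.60 CPM against 1.02, 3.70 and 5.61 CPM (edgeR adjusted p = 0.022), a call lost without cold 1, cold 2 or CL 1 (up to 0.089). It was also lost with the PBS group or all 6 brown fat groups in the fit (edgeR adjusted p = 0.09 and 0.26). Without cold 1, 2 members were called higher.

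General adipocyte genes divided, 4 of 13 higher in cold and 5 lower. Beside Lep, Fabp4 and Slc2a4, the adipocyte regulator Cebpa was higher in cold (log2 1.15 ± 0.24 SE, edgeR adjusted p = 0.0034). Lower were Adipoq, Plin1, the hormone-sensitive lipase Lipe (-0.75 ± 0.14, 0.0015), the master regulator Pparg (-0.71 ± 0.16, 0.0059) and the droplet fusion protein Cidec (-0.64 ± 0.16, 0.01). The summed level of the list was 10104 to 11424 CPM in cold and 8625 to 11825 CPM in CL, so the groups overlapped. The call of Cidec was lost without cold 2 (edgeR adjusted p = 0.052).

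Ranked by size of difference among genes with at least 5 CPM in the higher group, Bdh1 (chr16:31422280-31458901, plus strand), the dehydrogenase that interconverts the ketone bodies, came first. It stood at 30.0, 38.1 and 26.6 CPM in cold and at 0 CPM in every CL and PBS library, with a reference maximum of 1.37 CPM. With CL set at a floor of 3 counts over the group, the mean of the cold libraries was 183-fold that floor (edgeR adjusted p = 2.6e-06 for cold against CL). Trim80, Ccna2, Akr1c14, Serpina1c and Lrrc52 also had 0 counts in all CL libraries. Their cold means were 60.6, 53.1, 42.5, 40.7 and 38.0-fold the floor (edgeR adjusted p between 1.0e-04 and 0.009 for cold against CL). Of these, Serpina1c was mostly cold 1, at 17.7 CPM against 1.48 and 1.94 CPM, so its fold rests on that library. Serpina1c also shares 74.2% of its windows with Serpina1a. Reference libraries reached 7.23 CPM for Trim80 and 7.54 CPM for Lrrc52, inside the range of the cold libraries (6.92 to 14.5 and 5.04 to 7.63 CPM). For Ccna2, Akr1c14 and Serpina1c the reference libraries without PBS 3 lay below every cold library, at most at 1.48, 4.46 and 0 CPM. PBS 3 had 5.77 CPM of Ccna2, above cold 1 at 5.55 CPM. Ccna2 stood at 5.72, 4.74 and 8.58 CPM in the DTR+ CL libraries, which overlap the cold ones.

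The next 6 genes higher in cold were Cpne5, a copine, Olfr1396, an olfactory receptor gene, H1f3, a linker histone, Adcy10, a soluble adenylyl cyclase that bicarbonate activates, Lsm11, of histone mRNA processing, and Kcng4, a potassium channel subunit. Cpne5 stood at 33.4, 33.1 and 46.0 CPM in cold and 1.02, 0 and 0.108 CPM in CL (log2 7.21 ± 0.61 SE, edgeR adjusted p = 4.7e-06), above its reference maximum of 8.23 CPM. Adcy10 stood at 33.5, 11.1 and 12.8 CPM in cold and 0, 0.974 and 0.216 CPM in CL (log2 5.51 ± 0.75 SE, edgeR adjusted p = 1.9e-04), and its reference libraries reached 17.5 CPM. The cold libraries of Olfr1396 ranged from 12.3 to 14.9 CPM, those of H1f3 from 5.44 to 7.14, of Lsm11 from 1.48 to 10.4 and of Kcng4 from 4.54 to 12.6 CPM, each with no CL library above 1.02 CPM. Reference libraries reached 17.6 CPM for Kcng4, above every cold library, and 6.00 CPM for Lsm11, inside the cold range. For Olfr1396 and H1f3 they stayed below every cold library, at most at 4.29 and 2.14 CPM.

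At the other end, beside Nr4a3, Hspa1a and Atf3, stood Rasef, Plk3, Tatdn2, Zfp146, Sav1, Lonrf3, Pm20d2 and Hmox1. Plk3, a polo-like kinase of the stress response, stood at 0, 1.09 and 3.39 CPM in cold and 87.4, 87.4 and 115 CPM in CL (log2 -6.00 ± 0.78 SE, edgeR adjusted p = 0.0015). Hmox1, the inducible heme oxygenase, stood at 15.6, 25.1 and 12.1 CPM in cold and 893, 291 and 428 CPM in CL (log2 -4.89 ± 0.55 SE, edgeR adjusted p = 0.001). For both genes the cold libraries lay within the reference range and the CL libraries above it. Sav1, the scaffold of the Hippo pathway, stood at 0.231 to 1.57 CPM in cold and 14.3 to 26.7 CPM in CL (edgeR adjusted p = 1.3e-04), and Tatdn2 at 0.231 to 0.847 against 8.63 to 35.6 CPM (7.2e-05). Rasef, Zfp146, Lonrf3 and Pm20d2 were below 1 CPM in all cold libraries and between 3.05 and 27.7 CPM in CL.

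Cell cycle genes were higher in cold at 16 of 25 tested and lower at 0, with a median of 2.40. By DESeq2 or at an unadjusted edgeR p under 0.05, 0 were lower too. Beside Ccna2, a cyclin, these included Birc5, a mitosis protein, at 3.93, 11.1 and 4.24 CPM in cold and 0.339, 0.195 and 0.755 CPM in CL (edgeR adjusted p = 0.0026). Mcm6 of the replication helicase and Tyms, which makes thymidylate, were 4.74-fold and 2.91-fold higher in cold (edgeR adjusted p = 0.004 and 0.0026). All 30 listed genes summed to 178 to 396 CPM in cold, with cold 2 highest, 85.9 to 131 CPM in CL and 94.8 to 172 CPM in the 12 reference libraries. All cold libraries thus lay above that range, and PBS 3 stood at 293 CPM. Without cold 2, 6 members were called higher in place of 16. With the 3 DTR+ CL libraries in place of the DTR- ones, 1 was.

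Endothelial genes were higher in cold at 8 of 19 and lower at 3 (median 0.46), and the list summed to 1496 to 1858 CPM in cold, 1084 to 1277 CPM in CL and 769.9 to 1371 CPM in the reference libraries. Aplnr, the apelin receptor, stood at 24.3, 72.2 and 61.0 CPM in cold and 4.74, 5.45 and 8.09 CPM in CL (log2 3.09 ± 0.40 SE, edgeR adjusted p = 1.4e-04), below every reference library in CL. Emcn, a vessel sialomucin, and Tie1, an endothelial kinase, were 4.96-fold and 2.53-fold higher in cold (edgeR adjusted p = 6.5e-05 and 5.0e-04). Other defining endothelial genes went the opposite way: Flt1, a VEGF receptor, Cdh5, the junctional cadherin, and Cldn5, a claudin, were lower in cold (log2 -0.90, -0.89 and -0.69, edgeR adjusted p = 0.0058, 0.023 and 0.04). Cdh5 lost its call without cold 1, cold 2, CL 1 or CL 2 (edgeR adjusted p up to 0.095) and Cldn5, whose groups overlapped, in all fits but that without CL 2 (up to 0.17). With the PBS group in the fit both calls were lost (edgeR adjusted p = 0.061 and 0.13), and that of Cldn5 also with all 6 groups (0.14). Without cold 1, cold 2 or CL 1, 1 member was called lower, and without cold 3, 5 were called higher.

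Matrix and fibroblast genes were lower in cold at 7 of 22 and higher at 2 (median -0.26), with sums of 2366 to 3899 CPM in cold, 4138 to 4762 CPM in CL and 1858 to 3901 CPM in the reference libraries. Col4a1, a basement membrane collagen, stood at 237, 268 and 381 CPM in cold and 965, 689.5 and 801 CPM in CL (log2 -1.44 ± 0.19 SE, edgeR adjusted p = 1.4e-04), with CL alone wholly above the reference maximum of 276 CPM. Timp3, a protease inhibitor, Pdgfra, a marker of fibroblasts and adipocyte precursors, and Col3a1, a fibrillar collagen, were 4.25-fold, 3.10-fold and 2.25-fold lower in cold (edgeR adjusted p = 3.4e-05, 9.5e-04 and 0.002). Lum and Sparc, of the collagen matrix, were higher in cold by 0.81 and 0.64 (edgeR adjusted p = 0.012 and 0.0048), and Lum lost its call without cold 1 or CL 1 (up to 0.053).

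Of 5 tested Schwann cell and nerve genes, 3 were lower in cold, among them the myelin genes Mbp and Pmp22, and S100b was higher (median -1.24). S100b, a calcium-binding protein that thermogenic adipocytes also make, stood at 146, 179.9 and 104 CPM in cold and 29.8, 37.4 and 33.2 CPM in CL (log2 2.12 ± 0.22 SE, edgeR adjusted p = 2.4e-05). The cold libraries lay above the reference range of 49.7 to 97.5 CPM and the CL libraries below it. Pmp22 was 2.72-fold lower in cold (edgeR adjusted p = 2.2e-04) and Mbp 2.36-fold (0.025). The call of Mbp was lost without cold 1, cold 2 or CL 1 (edgeR adjusted p up to 0.11) and with the PBS group in the fit (0.054). Without cold 2 or CL 1, 1 member of the list was called lower.

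Immune markers differed at few genes. The interferon-response list had 2 of 29 tested genes higher in cold, Iigp1 and Gbp7, both interferon-induced GTPases, by 1.06 and 1.17 on the log2 scale (edgeR adjusted p = 0.012 and 0.008). It summed to 411 to 495 CPM in cold and 289.6 to 419 CPM in CL. The call of Iigp1 was lost without cold 2 or CL 1 (edgeR adjusted p up to 0.059) and that of Gbp7 without cold 3 (0.061). Adding the PBS group to the fit ended both (0.71 and 0.35), as did all 6 groups (0.58 and 0.2). Of 17 macrophage genes, the complement gene C1qc was lower in cold, at 3.47 to 7.26 against 21.3 to 28.8 CPM (edgeR adjusted p = 3.6e-04), and the lysozyme gene Lyz2 was higher, at 89.2 to 127 against 64.8 to 80.2 CPM (0.013), a call lost without cold 2, cold 3, CL 1 or CL 3 (up to 0.074) and with the PBS group or all 6 groups in the fit (0.082 and 0.22). Without cold 3, 2 macrophage genes were called lower, and 1 interferon gene was without cold 3 or CL 2.

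Of 3 tested B cell genes, Ighm, the IgM heavy chain, was higher in cold by log2 1.63 ± 0.41 SE (edgeR adjusted p = 0.0097). No gene passed the test among 2 of T and NK cells (Lck 0.97, Nkg7 2.03, with no library above 5 CPM), 5 of neutrophils and mast cells (Kit -0.39, Cma1 -1.60) or 5 of red cells (Hba-a1 -0.38, Hbb-bs -0.20). Of 11 muscle genes, Mb, myoglobin, was higher in cold (edgeR adjusted p = 0.026), at 30.6, 7.51 and 9.56 against 3.05, 0.974 and 6.04 CPM, a call lost without cold 1, CL 1 or CL 2 (up to 0.16) and with all 6 groups in the fit (0.2). The muscle list had a median of -2.21 with 0 members called lower, so Mb ran against the rest of it. With no filter on low counts, 3 muscle genes were called lower and 1 higher. Without CL 2, 2 muscle genes were called lower, and without CL 1, 1 red cell gene was. Ighm lost its call without cold 2 (edgeR adjusted p = 0.08). DESeq2 called 0 genes in the T and NK cell, neutrophil and mast cell, and red cell lists, and 1 red cell gene had an unadjusted edgeR p under 0.05. The part of these markers in the differences above was not tested.

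The DTR+ CL libraries give a further set of animals given CL. Of the 1822 genes higher in cold than in DTR- CL, all 3 DTR+ CL libraries lay below all 3 cold libraries at 1368 (75.1%) and above them at 30 (1.65%). Of the 2112 genes lower in cold, they lay above at 1420 (67.2%) and below at 19 (0.900%). The same cold libraries served to choose these genes, so part of this agreement is built in. The matching share over all genes tested is not given, so these shares are a description and not a replication. Ckb stood at 57.0, 88.7 and 111 CPM in the DTR+ CL libraries and Adrb3 at 22.2, 17.9 and 24.3 CPM. Ppargc1a stood at 1706, 1936 and 874 CPM, Acot5 at 242, 211 and 293 CPM and Ucp1 at 14560, 10676 and 12500 CPM. The first 4 genes thus lay on the CL side of every cold library, as they do in the DTR- CL libraries, and all 3 Ucp1 values lay under the cold values. These mice differ from the cold group in DTR genotype, toxin and, as the series intends, regulatory T cells as well.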

How the data were processed

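RNA was measured in whole brown adipose tissue by Smart-seq2 with Nextera XT libraries from 2 ng of RNA, per the labels' protocols. The deposited values are whole-number counts of reads per gene and library. The authors aligned with STAR 2.7.3a to mm10 and counted with featureCounts, as recorded in the submitters' processing notes. The sources used here do not give the annotation, the strand setting or how reads with several matches were handled, so near-identical copies and overlapping genes are uncertain.

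Counts were tested as deposited with edgeR 4.0.16 in R 4.3.3 (filterByExpr, TMM factors, robust quasi-likelihood F test, Benjamini-Hochberg adjustment over all genes tested, threshold 0.05). Of 55011 genes in the table, 12206 passed the filter on low counts in the 6 libraries of the direct contrast. A log2 difference is cold minus CL, ± SE of the model. The PBS comparisons came from 1 fit of 9 libraries, 12826 genes. CPM are counts scaled to library size on TMM factors common to 22 libraries of 7 groups, not adjusted for gene length, so levels are compared within a gene only. For groups with 0 counts, folds set the mean of the other group against a floor of 3 counts over the group. With 1 to 3 counts no fold is given. The SE includes the spread between libraries as fitted by the model, while the floors cover counting error only.

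Named were Ckb, Ppargc1a, Acot5, Adrb3 and Ucp1, the 12 called genes with the largest difference in each direction (at least 5 CPM in the higher group, no overlap of the groups, no predicted, ribosomal protein or receptor segment genes), up to 4 called members of each of 34 lists by smallest p (the 2 with the highest level where no member was called), all tested members of the creatine, Acot and clock lists, and counts of 5 or fewer in full. Some genes that meet these rules are not reported here. The members and lists were chosen with earlier results of these data known. Lists are described by counts and medians, to be read against those of all genes tested.

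Replicate pairs of the same group differed by more than sampling noise (cold, CL and PBS pairs had chi-square values of 10.3 to 36.2 per degree of freedom), so each library counts once. Positions are from GENCODE M21 on mm10 (199 of 201 named genes matched) and promoters from RefSeq on GRCm38.p6, which is the same build. Alternatives used DESeq2 1.42.0, other scalings, filters, controls and fits without 1 library.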

Additional observations from a re-analysis of the deposited data

How the results depend on the processing

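The number of genes called between cold and CL stayed within 1.5 times of 3934 under every alternative run: 4215 with DESeq2, 3912 with RLE size factors, 3903 without the mitochondrially encoded genes, 4146 with no filter on low counts, 3961 with PBS and 5171 with all 6 brown fat groups in the fit, and 2918 to 3756 without 1 library. With no filter, 52.0% of the calls were higher in cold (2154 against 1992), compared with 46.3% in the main result. Alternatives chosen after seeing the data gave 4066 with the DTR+ CL libraries, 3950 without skeletal muscle genes and 3195 with counts thinned to the smallest library. The genes called between cold and PBS numbered 1013, and 2724, 3864 and 2828 with D3_PBS, D4 and the isotype group as control, 1461 with DESeq2, 1443 with no filter and 576 to 778 without 1 library (778 without PBS 3). Those between CL and PBS ranged from 2831 to 3361 without 1 library.

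The numbered replicates of cold and CL are not paired by the labels, and their deviations were uncorrelated (-0.01, -0.04 and -0.07). A replicate block gave 3402 calls between cold and CL, 3298 between CL and PBS and 793 between cold and PBS.

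Of 175 named genes called between cold and CL, every one kept its call with DESeq2 and none reversed under the alternatives planned. Calls were lost at 9 with no filter (Atp5j, Cox7b, Dgat1, Fst, Herpud1, Metrnl, mt-Nd6, Rgs2, Slc6a8), at 9 with the block (among them Cox7b, Fst, G0s2, Herpud1, Metrnl, Pde4a, Pdia4 and Slc6a8), at 13 with PBS in the fit (Acss2, Cdh5, Cldn5, Fgf9, Fos, G0s2, Gbp7, Iigp1, Lep, Lyz2, Manf, Mbp, Pde4a), at 13 with all 6 groups in it (Acss2, Cldn5, Dusp1, Ffar4, Fgf9, Fos, G0s2, Gbp7, Iigp1, Lep, Lyz2, Mb, Pde4a), at 13 with thinned counts (among them Cldn5, Cox7b, Dbp, Fos, Fst, Lep, Manf, mt-Nd6, Nrg4, Pde4a, Pdia4 and Slc6a8), and at Pde4a with RLE size factors or without the mitochondrially encoded genes. With the DTR+ CL libraries, 21 of 174 lost their call and 16 reversed. The log2 differences that changed sign there were 0.17 for Acads, 1.19 for Acss2, -0.28 for Birc5, 0.67 for Cdh5, 0.01 for Ffar4, 0.07 for Flt1, -1.39 for Fos, -2.20 for Gbp7, -4.16 for Iigp1, 0.15 for Lipe, -0.62 for Lum, -2.24 for Lyz2, -0.26 for Mcm6, 0.01 for Mmut, -0.01 for Pdia4 and 0.12 for Pnpla3, and, among genes not called in the main result, -2.59 for Ciart, -2.05 for Lck and -2.39 for Nkg7. List counts moved with those libraries too. Thermogenic genes then had 9 higher in cold and 7 lower, and adrenergic signalling 5 and 4. Macrophage genes had 1 higher and 17 lower, and interferon-response genes 0 and 30. The cause was not tested. CL 1, with 3007241 counts, limits what can be seen of low genes, and 3 libraries a group limit the precision of each difference.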
